A study of Homo sapiens with 6 samples.

Results

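Expression of 10 enzymes that detoxify carbonyls and quinones was examined in A549 cells after knockdown of GSE1. The genes were 5 aldo-keto reductases (AKR1B1, AKR1B10, AKR1C1, AKR1C2 and AKR1C3), 3 aldehyde dehydrogenases (ALDH1A1, ALDH3A1 and ALDH3A2), the carbonyl reductase CBR1 and the quinone reductase NQO1. They were taken by symbol as enzymes abundant in A549 cells, from a table of 60612 genes, and all 10 were among the 15937 genes that passed the filter on low counts. Aldo-keto reductases and carbonyl reductase reduce aldehydes and ketones to alcohols with NADPH. Aldehyde dehydrogenases oxidise aldehydes to acids, and NQO1 reduces quinones to hydroquinones. Several of these genes are known targets of NRF2. This transcription factor switches on genes against oxidants and electrophiles, and KEAP1 marks it for degradation. A549 cells are known to carry a KEAP1 mutation that leaves NRF2 active.

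A549 is an established human lung adenocarcinoma line. Cells grew for 24 hours, were given either an siRNA against GSE1 (siGSE1) or a negative control siRNA, and were harvested 48 hours later, with 3 libraries in each group. Which siRNA sequences were used, and whether replicates were separate cultures, was not given in the sources used here, and the p-values therefore reflect library-to-library spread that may be technical. In bulk RNA, fewer cells expressing a gene and less of its RNA per cell cannot be told apart. Library totals ran from 14475992 to 20755506 counts. The targeted gene, GSE1, had 7.37, 8.06 and 7.92 FPKM (counts scaled by exonic length and library total) in control replicates 1, 2 and 3 and 3.84, 4.06 and 3.73 in the siGSE1 replicates, so its groups do not overlap. Its level in siGSE1 cells was 49.0% of control (edgeR log2 fold change -1.03, adjusted p = 2.14e-08). KLF6, named in the series title, went the other way, from 7.32 ± 0.10 to 15.5 ± 0.15 FPKM (SD, n = 3 each, edgeR adjusted p = 1.05e-08). Among 10 epithelial markers, the keratin genes KRT7, KRT8 and KRT18 averaged 576, 754 and 902 FPKM in control cells. The alveolar markers SFTPB, SFTPC and NKX2-1 lay under 0.05 FPKM in both groups. EPCAM was at 0.96 FPKM in control and 0.67 in siGSE1 cells, and 4 of the 10 were under 1 FPKM in both groups. Of 7 tested epithelial markers, 0 rose and 3 fell (KRT8, KRT18 and CLDN4), with 3 and 1 falling by DESeq2 and limma and 0 rising at an unadjusted p under 0.05. Over all genes tested, 9.02% were lower and 10.9% higher. Among genes at least as abundant in control cells as ALDH3A2, 25.8% were lower. Markers of other cells were mostly near 0, with both groups under 1 FPKM for 6 of 7 leukocyte markers, for 6 of 7 fibroblast markers and for 5 of 6 endothelial ones. Their summed levels were 3.65 to 5.86 (leukocyte), 1.3 to 1.99 (fibroblast) and 0.78 to 1.05 FPKM (endothelial) in control libraries and 3.35 to 4.91, 2.08 to 2.28 and 1.29 to 2.25 in siGSE1 libraries. The endothelial marker TIE1 was at 0 in every library. Only 1 leukocyte, 3 fibroblast and 2 endothelial markers passed the filter on low counts and were tested. Of these, 1 endothelial marker, ESAM, rose from 0.83 ± 0.19 to 1.84 ± 0.57 FPKM (SD, n = 3 each). The tested leukocyte and fibroblast markers gave 0 changes by edgeR, by DESeq2, by limma or at an unadjusted p under 0.05. The leukocyte marker tested, CD14, averaged 4.15 FPKM in control and 3.88 in siGSE1 cells. The log2 fold changes of COL1A1, LUM and PDGFRA, the fibroblast markers tested, were 0.20, 0.69 and 0.82. The part of these markers in the results that follow was not tested.

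The 10 enzymes were chosen as abundant in A549 cells, and their mean control FPKM ranked from 9 to 1110 among all genes. Together they took 3.52% to 3.74% of all counts in control libraries and 3.05% to 3.20% in siGSE1 libraries. AKR1B10, ALDH1A1 and AKR1B1 ranked 9, 10 and 11 among all genes by mean control FPKM, and these 3 made up 77.4% to 79.4% of the summed FPKM of the 10 in every library. In control cells the order of FPKM was AKR1B10, ALDH1A1, AKR1B1, AKR1C3, AKR1C2, NQO1, ALDH3A1, AKR1C1, CBR1 and ALDH3A2. Neighbours in that order overlapped between libraries only for AKR1C3 with AKR1C2 and for NQO1 with ALDH3A1. In siGSE1 cells ALDH1A1 stood first and AKR1B10 second, without overlap, and the other positions were as in control cells. There NQO1 and ALDH3A1 no longer overlapped, at 463.5 to 476 against 259.6 to 278 FPKM. These levels depend on the exonic length used by the authors, which was 15331 bases for ALDH3A2 and 8765 for AKR1C1 but 1773 for AKR1B10.

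**Figure D1:**
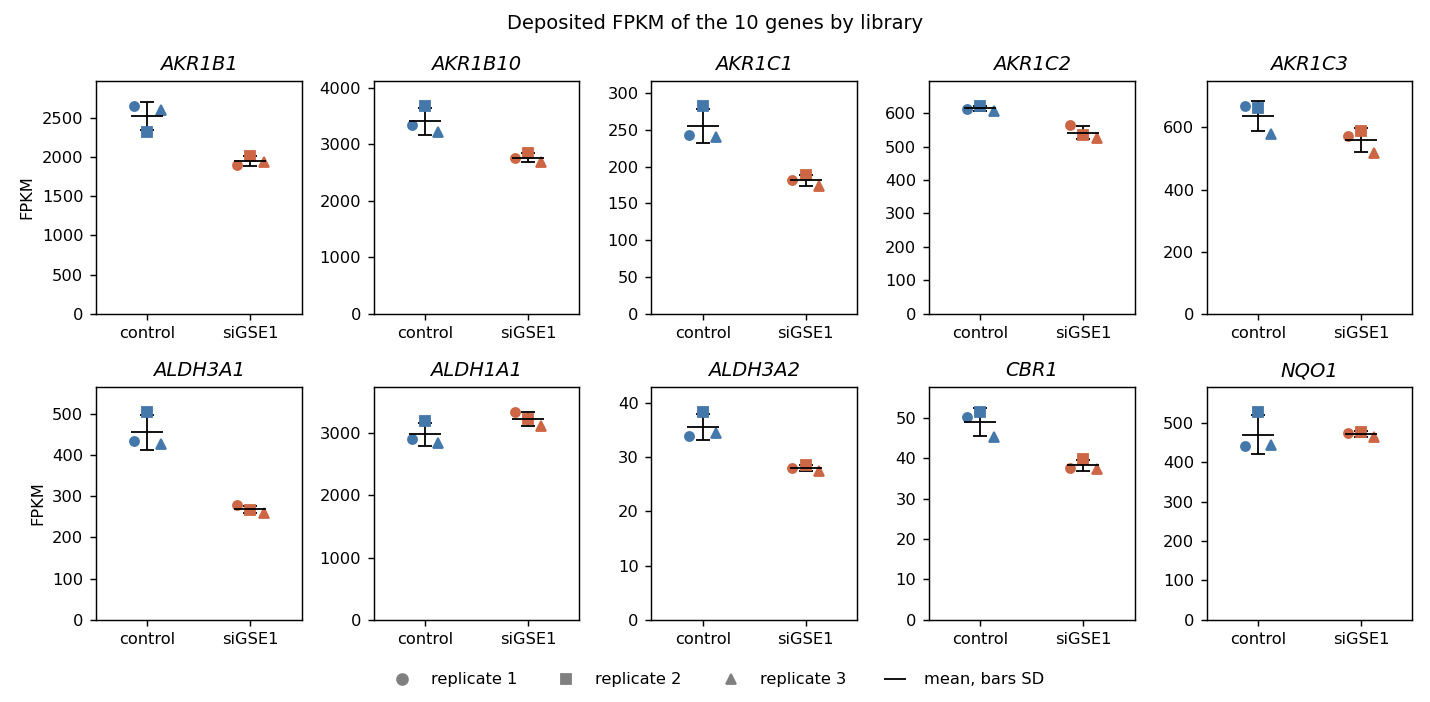
Deposited FPKM (linear axis from 0) of each gene in the 3 control and 3 siGSE1 libraries, with the marker shape giving the replicate, the horizontal line the group mean and the bars the SD. The siGSE1 points lie below all control points for 7 of the 10 genes, and the groups overlap for AKR1C3, ALDH1A1 and NQO1.

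Of the 10 enzymes, 8 fell in siGSE1 cells, 0 rose and 2 did not pass the test (edgeR quasi-likelihood test, Benjamini-Hochberg adjusted p under 0.05 over all genes tested). ALDH3A1 fell most, to 57.9% of control, followed by AKR1C1 at 69.9%, and ALDH1A1 and NQO1 were the 2 that did not pass. DESeq2 gave 8 lower and 0 higher and limma 7 lower and 0 higher, and at an unadjusted p under 0.05 edgeR also gave 0 higher. Over all genes tested, 19.9% were called, 9.02% lower and 10.9% higher. Among the 1110 genes at least as abundant in control cells as ALDH3A2, the least abundant of the 10, 25.8% were lower and 13.4% higher. The 10 enzymes were chosen with earlier results of these data known, so this contrast is no independent evidence of their direction. The median log2 fold change was -0.35 over the 10 enzymes, -0.07 over those abundant genes and 0.0044 over all genes tested. The higher and lower calls over all genes were 1730 and 1437, and 2544 and 929 when libraries were scaled to a fixed sum of TPM. Under that scaling 7 of the 10 enzymes were lower and 1, ALDH1A1, was higher. With limits set at 0.001 for the adjusted p and 0.5 for the size of the log2 fold change, AKR1C1 and ALDH3A1 were lower, 2 of 10, against 0.929% of all genes tested. Control and siGSE1 libraries were fully apart in 7 of the 10 enzymes, all 7 lower in siGSE1 cells, against 14.9% of all genes tested that were lower without overlap and 36.1% that did not overlap in either direction.

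**Figure D2:**
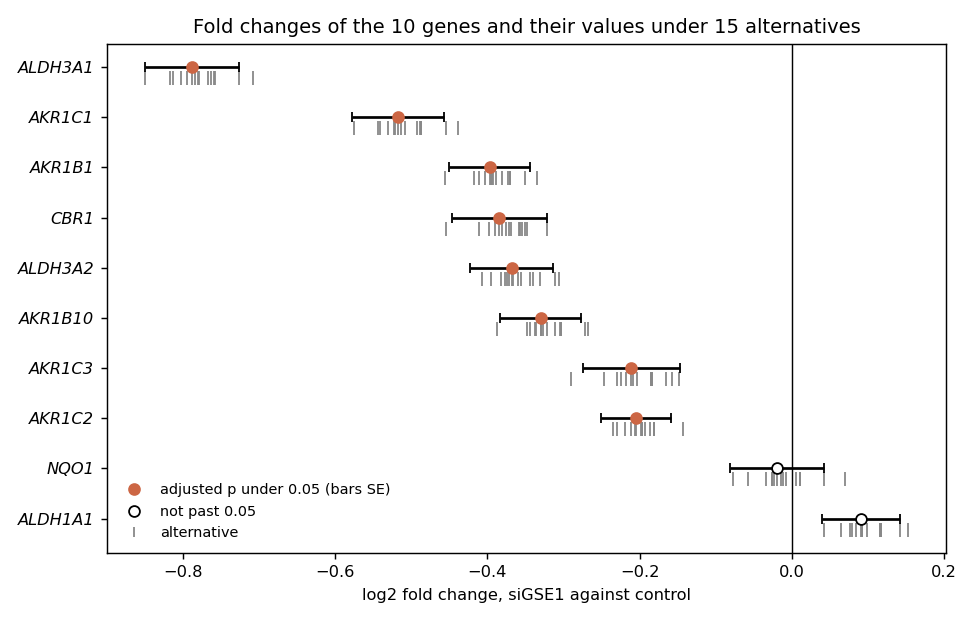
Log2 fold change of each gene (siGSE1 against control) with its SE as bars, filled where the edgeR adjusted p is under 0.05, and, as grey ticks, its value under each of 15 alternative analyses. The 8 filled points lie between -0.79 and -0.21 with all of their ticks below 0, whereas the ticks of NQO1 lie on both sides of 0.

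AKR1B1, the aldose reductase that turns glucose into sorbitol, lies on chromosome 7 (134442356 to 134459284, minus strand, exonic length 3654 bases). It had 2655, 2321 and 2602 FPKM in control replicates 1, 2 and 3 and 1904, 2016 and 1936 in the siGSE1 replicates. Control replicate 2 was the lowest of its group, and all siGSE1 values lay below it. AKR1B1 fell to 75.9% of control, from 2526 ± 180 to 1952 ± 58.0 FPKM (SD, n = 3 each), which is -0.40 on the log2 scale (SE 0.05, edgeR adjusted p = 8.16e-05).

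AKR1B10, a reductase of retinal and of lipid-derived aldehydes, lies 68282 bases away on the plus strand of the same chromosome (134527567 to 134541412). It had 3337, 3678 and 3208 FPKM in the control replicates and 2752, 2839.8 and 2684 in the siGSE1 replicates. Here control replicate 2 was the highest of its group, the reverse of AKR1B1, and the groups again did not overlap. AKR1B10 fell to 79.6% of control (log2 fold change -0.33, SE 0.05, edgeR adjusted p = 4.18e-04). The coding sequences of the pair are 76.8% identical, with no identical run longer than 22 bases, so reads of 50 bases, the length in the series text, could be told apart between them within the coding sequence. AKR1B10 shares 9.69% of its 50-base windows with AKR1B15, a neighbouring near-copy at 7.15 ± 1.25 FPKM in control and 7.52 ± 0.26 in siGSE1 cells.

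AKR1C1, AKR1C2 and AKR1C3 reduce steroids, prostaglandins and reactive aldehydes. AKR1C1 is known as a 20-alpha-hydroxysteroid dehydrogenase that inactivates progesterone, AKR1C2 as the enzyme that inactivates dihydrotestosterone, and AKR1C3 as a 17-beta-hydroxysteroid dehydrogenase and prostaglandin F synthase. They form a cluster on chromosome 10, with AKR1C1 at 4963253 to 4983283 (plus strand), AKR1C2 at 4987400 to 5018031 (minus strand) and AKR1C3 at 5035354 to 5107686 (plus strand). Their likeness bears on how far their counts can be told apart. The coding sequences of AKR1C1 and AKR1C2 differ at 19 of 972 bases, are 98.0% identical and share a run of 189 identical bases, whereas AKR1C3 is 91.9% identical to AKR1C1 and 91.3% to AKR1C2. The stretch of coding bases 103 to 162, counted from the start codon, holds 10 of the 19 differences. It is printed here from GENCODE release 29 transcripts, with the positions that are not the same in all 3 genes in capitals.
AKR1C1: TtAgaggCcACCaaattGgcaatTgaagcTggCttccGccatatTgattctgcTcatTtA
AKR1C2: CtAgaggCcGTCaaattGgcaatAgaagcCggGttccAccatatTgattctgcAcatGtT
AKR1C3: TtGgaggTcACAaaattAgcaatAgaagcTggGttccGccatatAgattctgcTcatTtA
A read of 50 bases within this stretch separates AKR1C1 from AKR1C2, but the rest of the coding sequence holds fewer such positions. Of 8805 distinct 50-base windows in annotated AKR1C1 transcripts, 28.3% also occur in AKR1C2, and of 6548 in AKR1C2, 38.1% occur in AKR1C1. AKR1C3 shares 4.53% of its windows with any other gene. How reads that fit both genes were counted was not given in the sources used here, so the separate values of AKR1C1 and AKR1C2 are uncertain to that extent.

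AKR1C1 had 243, 283 and 240.2 FPKM in control replicates 1, 2 and 3 and 182, 188 and 174 in the siGSE1 replicates. All siGSE1 values lay below all control values, and the fold change was -0.52 on the log2 scale (SE 0.06, edgeR adjusted p = 2.14e-05). AKR1C2 had 613, 622 and 608 FPKM in the control replicates and 563.5, 535 and 527 in the siGSE1 replicates. Its control libraries differed little from each other, with a coefficient of variation of 1.16%, and its groups did not overlap either. It fell to 86.7% of control (log2 fold change -0.21, SE 0.05, edgeR adjusted p = 0.00500). AKR1C3 had 669, 662 and 580.0 FPKM in the control replicates and 574, 590.0 and 517 in the siGSE1 replicates. Control replicate 3 lay below siGSE1 replicate 2, so its groups overlapped. AKR1C3 fell to 86.4% of control (log2 fold change -0.21, SE 0.06, edgeR adjusted p = 0.0277), and this was the least stable of the 8 calls. Its adjusted p was 0.0878 without control replicate 1, 0.0693 without siGSE1 replicate 1, 0.180 without siGSE1 replicate 3, 0.0823 with TPM scaling and 0.135 by limma on log2(FPKM + 1). With the counts of AKR1C1 and AKR1C2 summed, which removes any exchange of reads between the pair, the sum fell by 0.31 on the log2 scale (SE 0.05, edgeR adjusted p = 2.55e-04).

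ALDH3A1, a cytosolic dehydrogenase of medium-chain and aromatic aldehydes that is also abundant in cornea, lies on chromosome 17 (19737984 to 19748943, minus strand). It had 434, 504 and 426 FPKM in control replicates 1, 2 and 3 and 278, 266 and 259.6 in the siGSE1 replicates. The highest siGSE1 value was far below the lowest control value. It fell from 454 ± 43.0 to 268 ± 9.42 FPKM (SD, n = 3 each), by 0.79 on the log2 scale (SE 0.06, edgeR adjusted p = 4.41e-07), and 2.20% of all genes tested had a lower log2 fold change. Counts ran from 18895 to 40554 per library.

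ALDH3A2, the fatty aldehyde dehydrogenase of the endoplasmic reticulum that is mutated in Sjogren-Larsson syndrome, lies beside it on the plus strand (19648136 to 19685760). Its level was 33.8, 38.25 and 34.4 FPKM in the control replicates and 28.0, 28.4 and 27.4 in the siGSE1 replicates, again without overlap. It fell to 77.5% of control (log2 fold change -0.37, SE 0.05, edgeR adjusted p = 1.76e-04). The deposited span of ALDH3A2 runs into SLC47A2 on the other strand, which was at 0.21 FPKM in control cells.

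ALDH1A1, which oxidises retinal to retinoic acid, lies on chromosome 9 (72900671 to 73080442, minus strand). It had 2899, 3187 and 2844 FPKM in the control replicates and 3334, 3230.3 and 3109 in the siGSE1 replicates. All siGSE1 libraries lay above control replicates 1 and 3, and control replicate 2 lay within the siGSE1 range. The log2 fold change was 0.09 (95% interval -0.02 to 0.20, edgeR adjusted p = 0.244). Without control replicate 2 the value was 0.14 with an adjusted p of 0.0262, and with TPM scaling it was 0.15 with an adjusted p of 0.0257, both past the threshold. None of its 50-base windows, 0 of 2821, occurs in another annotated transcript. The lowest count among the libraries was 116921, so depth did not limit this comparison.

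CBR1, which reduces quinones, prostaglandins and anthracycline drugs, lies on chromosome 21 (36069941 to 36073166, plus strand). It had 50.4, 51.5 and 45.2 FPKM in control replicates 1, 2 and 3 and 37.6, 39.9 and 37.45 in the siGSE1 replicates. The groups did not overlap. It fell to 76.6% of control (log2 fold change -0.38, SE 0.06, edgeR adjusted p = 3.94e-04). CBR1 lies within the opposite-strand genes SETD4 and AP000688.1, and the annotated transcripts of AP000688.1 cover 16.5% of its 50-base windows. These stood at 1.54 and 0.56 FPKM in control and 1.39 and 0.64 in siGSE1 cells, far below CBR1.

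NQO1, the best known NRF2 target of the set, lies on chromosome 16 (69706996 to 69726668, minus strand). It had 440.5, 527 and 442 FPKM in the control replicates and 475, 476 and 463.5 in the siGSE1 replicates. The siGSE1 libraries lay between control replicates 1 and 3 on the low side and control replicate 2 on the high side. The log2 fold change was -0.02 (95% interval -0.15 to 0.11, edgeR adjusted p = 0.865), and it was above 0 under 5 of 15 alternatives. Leaving out control replicate 2 gave 0.07 (adjusted p = 0.330).

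NRF2 binds antioxidant response elements, whose core was searched as TGACNNNGC on both strands of the RefSeq promoters (GRCh38.p14, 250 bases before to 50 after the gene start). Of the 10 enzymes, 8 were matched there, and AKR1B10 and ALDH3A1 were not. The RefSeq starts are not always the ends of the spans given above. The windows searched for AKR1C2 (5003808 to 5004107), AKR1C3 (5048531 to 5048830) and ALDH1A1 (72953004 to 72953303) lie well inside those spans. The outer ends of these 3 spans were therefore not searched. The core occurred in 1 of the 8, CBR1, in 13.6% of all 27305 promoters of that length and in 6 of 20 promoters of other NRF2 target genes (30.0%). It is shown in capitals in its 25-base surroundings, on the minus strand of chr21:36069857-36069881. Its centre lies at position -155 from the RefSeq start of CBR1, which differs from the start of the span given above.
CBR1: agctagccTGACTTTGCagaacccg
The AP-1 motif TGANTCA, which can overlap that core, occurred in 0 of the 8, in 7.76% of all promoters and in 3 of the 20. The core GCGTG of the aryl hydrocarbon receptor element occurred in 3 of the 8, AKR1B1, CBR1 and NQO1, in 36.3% of all promoters and in 12 of the 20. These are matches of letters in short windows and say nothing about sites elsewhere.

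Ratios of 2 enzymes within a library do not depend on how libraries are scaled, and 11 such ratios were computed. The FPKM ratio of AKR1C1 to AKR1C2 was 0.396, 0.454 and 0.395 in control replicates 1, 2 and 3 and 0.324, 0.352 and 0.330 in the siGSE1 replicates. All siGSE1 ratios lay below all control ratios. The ratio of AKR1C2 to AKR1C3 was 0.968 ± 0.070 in control and 0.970 ± 0.057 in siGSE1 cells (SD, n = 3 each), with overlap. The ratio of AKR1B1 to AKR1B10 also overlapped, at 0.631 to 0.811 in control and 0.692 to 0.721 in siGSE1 libraries. Ratios of ALDH3A1 to the other dehydrogenases were lower in siGSE1 cells without overlap. Its ratio to ALDH1A1 was 0.152 ± 0.0049 in control and 0.0830 ± 0.0007 in siGSE1 cells, and its ratio to ALDH3A2 was 12.8 ± 0.40 and 9.58 ± 0.31. Against NQO1, ALDH3A1 stood at 0.957 to 0.985 in control and 0.558 to 0.586 in siGSE1 libraries, and AKR1C1 at 0.536 to 0.552 and 0.375 to 0.395. CBR1 and AKR1B10 were lower against NQO1 as well, and ALDH1A1 was higher, at 6.05 to 6.58 against 6.71 to 7.02. Groups did not overlap in 9 of the 11 ratios. Each of the 9 had a two-sided exact permutation p of 0.1, the smallest that 3 libraries against 3 allow, and an adjusted p of 0.122 over the 11. The pairs were chosen, and many share NQO1 or ALDH3A1, so the ratios are independent neither of each other nor of the fold changes above. How often ratios of other gene pairs do not overlap was not computed. Of single genes tested, 36.1% did not overlap in FPKM.

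**Figure D3:**
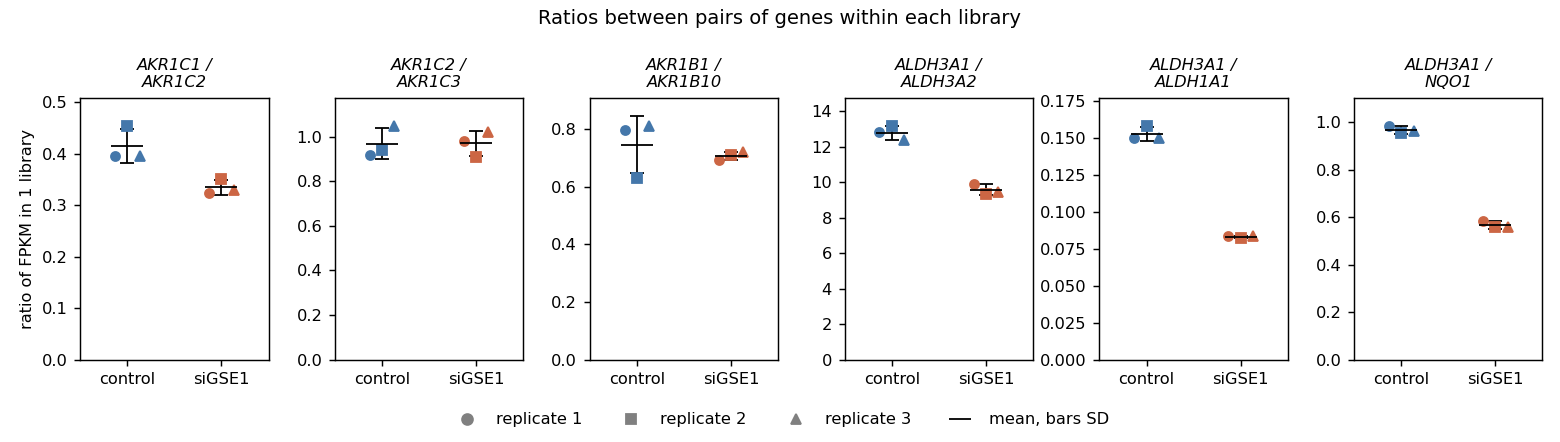
FPKM ratio of 2 genes within each library (linear axes from 0), with the marker shape giving the replicate, the line the group mean and the bars the SD. The 3 ratios with ALDH3A1 as numerator and that of AKR1C1 to AKR1C2 are lower in every siGSE1 library than in any control library, and those of AKR1C2 to AKR1C3 and AKR1B1 to AKR1B10 overlap. The ratio of AKR1C1 to AKR1C2 depends on how reads that fit both genes were counted, which was not given.

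The control libraries were not alike in these genes. Relative to the control mean of log2 CPM, 9 of the 10 enzymes were above 0 in control replicate 2, all but AKR1B1, 4 in control replicate 1 and 1 in control replicate 3, with medians of 0.10, -0.02 and -0.10. NQO1, ALDH3A1 and AKR1C1 stood 0.17, 0.15 and 0.15 above the mean in control replicate 2. The medians in siGSE1 replicates 1, 2 and 3 were -0.34, -0.31 and -0.38, and in each of the 3 only ALDH1A1 lay above 0. Over all genes tested the medians lay between 0.0011 and 0.011 in all 6 libraries. Without control replicate 2, 8 enzymes were lower, with log2 fold changes of -0.46 for AKR1B1, -0.71 for ALDH3A1 and -0.44 for AKR1C1. The coefficient of variation of the 10 enzymes was 1.16% to 10.5% among control and 1.49% to 6.83% among siGSE1 libraries.

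**Figure D4:**
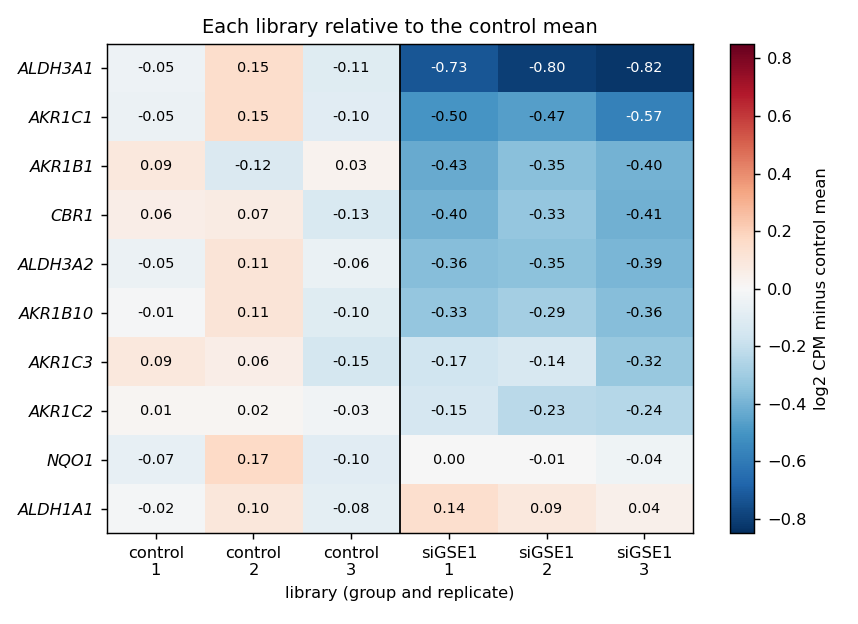
Log2 CPM of each gene in each library minus its mean over the control libraries, on a colour scale from -0.85 (blue) to 0.85 (red), with genes ordered by fold change. Control replicate 2 is above 0 for every gene except AKR1B1, and the 8 genes at the top are below 0 in all 3 siGSE1 libraries.

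Relatives of the 10 enzymes were counted against the same background, 19.9% of all genes tested called and 9.02% lower. Of 9 other aldo-keto reductases, 5 were tested, of which 1 fell and 0 rose, with a median log2 fold change of 0.05. By DESeq2 and limma 0 rose, and at an unadjusted p under 0.05 also 0. The gene that fell was AKR1A1, the aldehyde reductase of glucuronate metabolism, from 23.4 ± 2.71 to 19.7 ± 0.94 FPKM (log2 fold change -0.27, edgeR adjusted p = 0.0200). Its call was lost without siGSE1 replicates 1, 2 or 3, with TPM scaling and by limma. Of 16 other aldehyde dehydrogenases, 12 were tested, of which 3 fell, 1 rose and 8 did not pass, with a median of -0.12. ALDH1A3, another retinal dehydrogenase, went from 1.83 ± 0.27 to 1.35 ± 0.19 FPKM (edgeR adjusted p = 0.0440), mitochondrial ALDH1B1 from 30.1 ± 2.58 to 26.4 ± 1.55 (0.0357) and ALDH4A1 of proline breakdown from 9.44 ± 0.55 to 7.73 ± 0.78 (0.0165). The libraries of the groups overlapped in ALDH1A3 and ALDH1B1, and the calls of ALDH1A3, ALDH1B1 and ALDH4A1 were lost under 9, 7 and 5 of 15 alternatives. ALDH18A1, which makes proline, rose from 26.8 ± 1.43 to 31.9 ± 0.77 (SD, n = 3 each, edgeR adjusted p = 0.0125). By limma 0 of the 12 fell and 1 rose, and by DESeq2 3 fell and 1 rose. Without siGSE1 replicates 1, 2 or 3, 0, 2 and 1 fell, and with TPM scaling 0. The call of ALDH18A1 was lost without control replicate 3 (adjusted p = 0.0619), siGSE1 replicate 1 (0.0571) or siGSE1 replicate 3 (0.0690).

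Of 22 other carbonyl, alcohol and quinone reductases, 20 were tested, of which 4 fell, 0 rose and 16 did not pass, with a median of -0.11. By DESeq2 2 fell and 0 rose, by limma 3 fell and 0 rose, and 1 was higher at an unadjusted p under 0.05. Without control replicate 2, or without siGSE1 replicate 2 or 3, 2 fell. PTGR1, a reductase of leukotrienes and enals, had 179, 224 and 189 FPKM in the control replicates and 143, 139 and 134 in the siGSE1 replicates. It fell by 0.53 on the log2 scale (SE 0.07, edgeR adjusted p = 4.77e-05), and like most of the enzymes above it was highest in control replicate 2. NQO2, the paralog of NQO1, had 11.46 ± 0.04 and 9.81 ± 0.13 FPKM (SD, n = 3 each) and fell by 0.25 on the log2 scale (edgeR adjusted p = 0.00879). CBR3, the paralog of CBR1, had 4.40 ± 0.04 and 3.01 ± 0.18 FPKM, but its adjusted p of 0.0473 rose to 0.0751 by DESeq2 and lay above 0.05 under 11 of 15 alternatives. RDH10, a retinol dehydrogenase, had 17.1, 24.8 and 18.6 FPKM in the control and 17.4, 16.9 and 14.04 in the siGSE1 replicates (edgeR adjusted p = 0.0310). Its log2 fold change of -0.35 was -0.17 without control replicate 2 (adjusted p = 0.0638), its groups overlapped, and its call was lost under 9 of 15 alternatives, DESeq2 among them (adjusted p = 0.189).

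NFE2L2, the gene of NRF2, fell with 3 of its partners, and 0 of the 10 genes of this list rose. Its level was 19.8, 20.4 and 21.3 FPKM in the control replicates and 15.7, 16.1 and 15.5 in the siGSE1 replicates, without overlap (log2 fold change -0.40, SE 0.05, edgeR adjusted p = 6.40e-05). SQSTM1, the autophagy receptor p62 that sequesters KEAP1, fell from 126 ± 4.36 to 92.1 ± 1.82 FPKM (log2 fold change -0.48, edgeR adjusted p = 4.51e-06), MAFG, a small MAF partner of NRF2, from 36.2 ± 3.12 to 29.5 ± 0.47 (-0.32, 0.00134) and KEAP1 from 34.9 ± 0.29 to 30.8 ± 1.87 (-0.21, 0.0173, SD, n = 3 each). The median of the list was -0.18, all 10 genes lay below 0, and DESeq2 and limma also gave 4 lower and 0 higher, and at an unadjusted p under 0.05 also 0 were higher. Lower calls made up 9.02% of all genes tested and 25.8% of those at least as abundant as ALDH3A2. KEAP1 was not called with TPM scaling (adjusted p = 0.0786), without control replicate 1 (0.0503) or without siGSE1 replicates 1 or 2 (0.106 and 0.0957).

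Of 27 other NRF2 targets, 19 fell, 2 rose and 6 did not pass, with a median log2 fold change of -0.26. By DESeq2 19 fell and 2 rose, and by limma 15 fell and 1 rose. At an unadjusted p under 0.05, edgeR gave 22 lower and 3 higher. The share lower was 9.02% over all genes tested and 25.8% among those at least as abundant as ALDH3A2. This list of targets was made with earlier results of these libraries known and is no independent evidence of its direction. The 2 that rose, named after their values were seen, were ME1, a source of NADPH (37.96 ± 6.08 to 47.45 ± 1.20 FPKM), and UGT1A6 (0.38 ± 0.08 to 0.70 ± 0.05, SD, n = 3 each), which shares exons with other UGT1A genes, and 0 rose without control replicate 1 or without siGSE1 replicate 2 or 3. NR0B1, a nuclear receptor, fell from 18.6 ± 2.03 to 10.4 ± 0.39 FPKM (log2 fold change -0.86), OSGIN1, a growth inhibitor induced by oxidative stress, from 7.96 ± 1.25 to 4.68 ± 0.24 (-0.79), SRXN1, the sulfiredoxin that repairs peroxiredoxins, from 28.8 ± 0.85 to 18.5 ± 1.17 (-0.67) and GCLC, the catalytic subunit of glutathione synthesis, from 18.2 ± 1.59 to 11.7 ± 0.68 (-0.66; SD, n = 3 each). ALDH3A1 lay with these 4, and the other 7 enzymes that fell lay between -0.52 and -0.21.

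**Figure D5:**
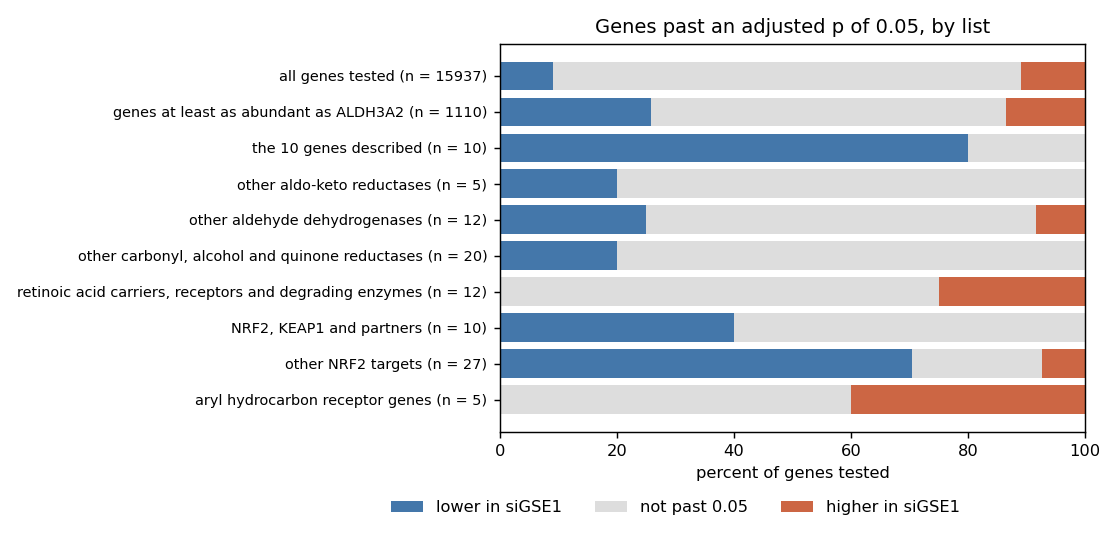
Percent of tested genes that were lower (blue), higher (orange) or not past an edgeR adjusted p of 0.05 (grey) in siGSE1 cells, for all genes, for genes at least as abundant as ALDH3A2 and for each list, with the number tested in brackets. Of the 10 enzymes 8 were lower, against 9.02% of all genes tested and 25.8% of the abundant ones. The 10 enzymes and the lists were chosen with earlier results of these data known.

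Genes that carry, sense or remove retinoic acid, the product of ALDH1A1, were examined beside it. Of 15 listed, 12 were tested, of which 3 rose, 0 fell and 9 did not pass, with a median log2 fold change of -0.05. Among all genes tested, 10.9% were higher and 9.02% lower. Of the 12, 7 lay below 0. DESeq2 and limma each gave 2 higher and 0 lower, and 1 was lower at an unadjusted p under 0.05. CYP26B1, which degrades retinoic acid, rose from 7.78 ± 0.90 to 9.56 ± 0.73 FPKM (log2 fold change 0.28, edgeR adjusted p = 0.0244). Its call was lost by limma (adjusted p = 0.0745 with a pseudocount of 1), without control replicate 1 (0.105) and without siGSE1 replicate 3 (0.148). The receptor genes RXRB and RARA rose from 6.74 ± 0.24 to 8.33 ± 0.28 and from 4.39 ± 0.27 to 5.30 ± 0.06 FPKM (SD, n = 3 each, edgeR adjusted p = 0.0146 and 0.0485). RXRB lost its call without siGSE1 replicate 2 or 3. RARA was not past the threshold by DESeq2 (adjusted p = 0.101) or when any library other than control replicate 1 was left out, and without siGSE1 replicate 3 the number that rose was 0.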

How the data were processed

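RNA sequencing libraries of A549 cells, 3 per group, were grouped by their titles. The authors deposited whole-number read counts per Ensembl gene, and FPKM for the same libraries, in 1 table, with no normalization of the counts. Each deposited FPKM equals the count scaled by exonic length and library total, within a tolerance of 0.0051. Per the submitters' processing notes, HISAT2, StringTie 1.3.3b, HTSeq and edgeR were among the tools and hg38 was the build. The series text instead names STAR and DESeq2, and calls the reads both paired-end and single-end. The annotation release and strand setting were not given in the sources used here.

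Genes were kept by filterByExpr (minimum count 10, minimum total 15), scaled by TMM and tested with the edgeR 4.0.16 quasi-likelihood test on group alone in R 4.3.3, with Benjamini-Hochberg adjustment over 15937 genes and a threshold of 0.05. DESeq2 1.42.0, limma 3.58.1 on log2 FPKM with a pseudocount, other scalings and leaving out each library served as alternatives. Standard errors were taken as the size of the fold change (log2) over the root of its F statistic. A total of 11 gene lists stood beside the 10 enzymes. Of each list that is not of cell markers, up to 4 genes past the threshold with the largest absolute fold change and at least 1 FPKM in the higher group are named, with all 10 enzymes, GSE1 and KLF6. The members and lists were chosen with earlier results of these data known. Shared windows and coding sequences come from GENCODE release 29. Counting error is small at these depths, and the biological coefficient of variation was 7.0%.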

Additional observations from a re-analysis of the deposited data

How the results depend on the processing

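Across 15 alternatives, AKR1B1, AKR1B10, AKR1C1, AKR1C2, ALDH3A1, ALDH3A2 and CBR1 kept their direction and stayed past the threshold in all 15, and AKR1C3 in 9, with log2 fold changes of -0.29 to -0.15 and adjusted p of 2.26e-04 to 0.180. The number of enzymes that fell was 7 or 8 throughout. The number that rose was 1, ALDH1A1, with TPM scaling and 0 to 1 when each library was left out. The log2 fold change of NQO1 turned positive without TMM (0.0049), with TPM scaling (0.042), by limma with either pseudocount (0.010) and without control replicate 2 (0.070), and leaving out 1 library gave -0.077 to 0.070. The summed AKR1C1 and AKR1C2 fell in every alternative, by 0.25 to 0.35 on the log2 scale. Over all genes the lower calls were 929 with TPM scaling and 887 and 909 by limma with pseudocounts of 1 and 0.1, against 1437. Leaving out 1 library gave 1049 to 1914 higher and 814 to 1648 lower calls over all genes, the fewest without siGSE1 replicate 3. In the 7 lists that are not of cell markers, 31 of 91 tested genes fell and 8 rose, against 9.02% lower and 10.9% higher over all genes tested. Of the 31, 19 belong to the list of other NRF2 targets. Leaving out 1 library gave 1 to 9 genes of the 7 lists that rose, the fewest without siGSE1 replicate 3. With the replicate block, 8 enzymes fell and 0 rose, and 1715 genes were higher and 1382 lower. Correlations of the deviations of same-numbered libraries were 0.020, -0.019 and 0.002. They run over all genes tested, including those with few counts, so they cannot decide whether same-numbered libraries shared a culture or batch. With the block the SE of AKR1C3 was 0.045, against 0.064 without it. The block ended the calls of ALDH1A3, CBR3 and RARA among the named genes. Among the named genes of other lists, 72 values under an alternative lost their call, 258 kept it and none changed sign. Depth does not limit the 10 enzymes, whose lowest count was 1604, but it does limit genes under 1 FPKM.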

Other observations

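ALDH3A1 and NQO1 are also known targets of the aryl hydrocarbon receptor, a sensor of dioxin-like compounds. Of 7 genes of that receptor listed, 5 were tested, of which 2 rose, 0 fell and 3 did not pass. Their median log2 fold change was 0.03. Higher calls made up 10.9% of all genes tested and lower calls 9.02%. Of the 5, 2 were higher and 0 lower by DESeq2 and by limma, and 0 were lower at an unadjusted p under 0.05. AHRR and TIPARP lay below 0 without passing (log2 fold changes -0.88 and -0.12), and AHR lay at 0.03. CYP1B1, a target gene, had 3.47, 4.56 and 3.72 FPKM in control replicates 1, 2 and 3 and 5.53, 6.15 and 5.73 in the siGSE1 replicates. The groups did not overlap, and the log2 fold change was 0.54 (SE 0.10, edgeR adjusted p = 8.21e-04). ARNT, the partner of the receptor, rose from 6.23 ± 0.53 to 7.56 ± 0.24 FPKM (SD, n = 3 each, edgeR adjusted p = 0.0159), and its call was lost without control replicate 1 or siGSE1 replicates 2 or 3. CYP1A1, the most responsive target, was under 0.1 FPKM in both groups.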
